A study of Mus musculus with 14 samples.

Results

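The enzymes that hold the glutathione and thioredoxin pools reduced, and the peroxidases and transferases that spend them, were examined in mouse leukemia cells after CRISPR targeting of Sgf29. The set comprised every row of the gene count table whose symbol names a glutathione S-transferase, a microsomal glutathione transferase, a glutathione peroxidase, a peroxiredoxin or a gene beginning with Txn, together with 14 named genes for glutathione synthesis, disulfide reduction, superoxide and peroxide removal and their regulators. It held 71 of the 22155 genes in the table, of which 52 had counts high enough to test. MLL-AF9-Cas9+ cells carry the MLL-AF9 fusion as the leukemia driver and express Cas9. They received, by lentivirus, either an sgRNA against Sgf29 (sgSgf29) or a control sgRNA aimed at nonessential sequence (sgCtrl). Both groups were selected with puromycin at 2 μg/ml over 3 days, and mRNA was sequenced from 3 libraries of each group. Sgf29 encodes a Tudor domain subunit of the SAGA and ATAC histone acetyltransferase complexes. The other samples of the series, which profile chromatin, were not analysed here. The labels state neither a wild type arm, nor separate cultures behind the numbered libraries, nor whether library numbers mark repeat samples or distinct guide sequences, and the p-values below therefore rest on library-to-library variation that could be purely technical.

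Glutathione is a thiol tripeptide made by glutamate-cysteine ligase and glutathione synthetase, and glutathione reductase returns its oxidized disulfide to the thiol at the cost of NADPH. Thioredoxins and their reductases form a parallel NADPH-driven system that keeps the peroxiredoxins active, while glutathione peroxidases draw on glutathione. Many of these genes are induced through NFE2L2 (NRF2), a transcription factor that KEAP1 holds low in unstressed cells, and myeloid cells face peroxide from their own oxidase as they mature.

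Gene counts numbered 16085601 to 20185751 per sgSgf29 library and 16003990 to 21786618 per sgCtrl library. Sgf29 itself measured 12.6, 13.4 and 17.4 CPM in the sgSgf29 libraries, against 36.2, 40.4 and 40.4 CPM in the sgCtrl libraries (CPM, counts relative to the library total, here after trimmed mean scaling, TMM). It was lower by a log2 fold change of -1.43 (SE, standard error, 0.11; adjusted p = 2.88e-10), in the direction of the labels, although Sgf29 overlaps Sult1a1 on the opposite strand. Marker genes of other states moved with the groups. The summed level of 12 myeloid progenitor markers was 12333 to 13041 CPM in sgSgf29 libraries and 22922 to 25613 CPM in sgCtrl libraries, with 7 of 12 lower and 4 higher. The summed level of 18 markers of maturing monocytes, macrophages and neutrophils was 25097 to 26820 CPM in sgSgf29 libraries and 9530 to 9970 CPM in sgCtrl libraries, with 12 of the 16 tested higher, 3 lower, and Mrc1 at 0 counts in every library. Of 9 erythroid markers 7 were at 0 throughout, and the lists for B cells, T and NK cells and fibroblasts each summed to less than 1 CPM per library. The 5 megakaryocyte markers summed to 5.72 to 7.50 CPM in sgSgf29 libraries and 8.37 to 9.66 CPM in sgCtrl libraries, with 1 of 2 tested lower. The 6 mast cell markers summed to 2.79 to 3.91 CPM in sgSgf29 libraries and 9.44 to 10.1 CPM in sgCtrl libraries, with the 1 tested gene lower and 4 at 0 throughout. These shifts accompany every result below, and their part in it was not tested. In bulk RNA, fewer cells of a type and less RNA per cell cannot be told apart.

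Of the 52 tested members, 23 were lower and 15 higher in sgSgf29 cells at an adjusted p under 0.05 in edgeR's quasi-likelihood test, which is 44.2% and 28.8% of them. Over all 11169 genes tested, 34.4% were lower and 35.4% higher. Every one of the 52 had at least 61 counts in each library, so that none entered the test through 1 group alone. The median log2 fold change of the members was -0.08 against 0.01 for all genes, and their median absolute log2 fold change was 0.32 against 0.42. The libraries of the groups did not overlap for 24 members that were lower and 14 that were higher (46.2% and 26.9%), beside 35.1% and 37% of all genes. Changes of at least 2-fold were found for Gsta4, Prdx6 and Gclc among the lower members and for Txndc16 and Nqo1 among the higher ones, and such changes were seen for 4.67% of all genes in the lower and 10.1% in the higher direction. The members therefore moved in both directions.

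Scaling mattered for the smaller changes. Ribosomal protein genes held 12.3% to 13.9% of gene counts in sgSgf29 libraries and 19.2% to 19.9% in sgCtrl libraries, and scaling by library size alone in place of TMM moved the median of all genes to a log2 fold change of 0.24 and that of the members to 0.16. It gave 17 lower and 25 higher members, so that 40.5% of the member calls were lower against 60.5% with TMM (30% against 49.3% over all genes). Of all genes tested, 21.4% were lower and 49.9% higher under that scaling. Of the members called with TMM, 17 lower and 15 higher ones had the same call under all 5 scalings tried. The exceptions were Gclm, Txn1, Gsto1, Prdx5, Txndc11 and Txndc12, which lost their call under library size alone. How many of all called genes kept their call was not counted, so these numbers have no background. Unscaled, the members took 1.15% ± 0.0174 of gene counts in sgSgf29 libraries and 1.17% ± 0.0225 in sgCtrl libraries (SD, n = 3 each). The libraries of the groups overlapped, and the exact two-sided permutation test (p = 0.4) cannot go below 0.1 with 3 against 3, so it does not bear on whether the shares differ.

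A few genes supplied most of these transcripts. Per kb of all annotated exons merged, Gpx1 had the highest level in both groups, at 1220 ± 65.2 CPM per kb in sgSgf29 libraries and 1655 ± 82.1 in sgCtrl libraries (SD, n = 3 each). Prdx5, at 734 ± 40.8, came next in sgSgf29 libraries, ahead of Gstm1 at 556 ± 6.75 and Gsr at 533 ± 61.0, and the last 2 did not differ beyond their spread. In sgCtrl libraries Gstm1 was second at 1066 ± 65.5, followed by Prdx5 at 859 ± 44.4, Txn1 at 563 ± 42.7 and Gsr at 423 ± 50.1. The order depends on the length used: per kb of the longest coding transcript Gpx1 stayed first in both groups, but Prdx5 came before Gstm1 in sgCtrl libraries too (1457 against 1218 CPM per kb), and Mgst2 came before Gstm1 in sgSgf29 libraries (882 against 636 CPM per kb). Gpx1, Prdx5, Gstm1, Gsr, Mgst2, Txn1 and Gpx4 together made up 66.7% ± 0.269 of the member counts in sgSgf29 libraries and 68.4% ± 0.345 in sgCtrl libraries. Within that total the share of Gstm1 was 7.74% ± 0.322 in sgSgf29 and 12.4% ± 0.485 in sgCtrl libraries, whereas that of Gsr was 13.8% ± 1.36 in sgSgf29 and 9.24% ± 1.31 in sgCtrl libraries. These shares do not depend on the scaling between libraries.

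The promoters of the family were read for the core of the antioxidant response element, TGACNNNGC on either strand, the element at which NFE2L2 and its small Maf partners bind. Windows of 300 bases, from 250 before to 50 after an annotated start (RefSeq, GRCm38.p6), were at hand for 64 of the 71 members, without Gclc, Gsr, Gsta4, Gstt2, Prdx6, Txnl1 and Txnl4a. At least 1 match was found for 13 of these 64 genes (20.3%), against 14% of all 27025 genes, and in 14.4% of their 90 windows against 12.4% of all 32851 windows in the table. The tested members with a match were Gclm, Gstm5, Sod1, Txndc5 and Txndc11, which were lower, Mgst1, Nfe2l2 and Srxn1, which were higher, and Prdx1 and Txnrd1, which were not called. Matches thus occurred among members of either direction that had a window. Of those without a window, Gsr was higher and Gclc, Gsta4, Gstt2, Prdx6, Txnl1 and Txnl4a were lower. They include every member lower by at least 2-fold, so the matches cannot be compared between directions. Nqo1, which was higher, had a window without a match. The AP-1 heptamer TGACTCA, which can lie within the longer core, was found in 8.89% of member windows and 5.2% of all windows. The 250 bases before the start are printed for 5 members, chosen because they hold a core match and span the 3 outcomes (lower, higher, not called), with matches in capitals. Gclm and Sod1 were lower, Mgst1 and Nfe2l2 were higher, and Prdx1 was not called.
Gclm: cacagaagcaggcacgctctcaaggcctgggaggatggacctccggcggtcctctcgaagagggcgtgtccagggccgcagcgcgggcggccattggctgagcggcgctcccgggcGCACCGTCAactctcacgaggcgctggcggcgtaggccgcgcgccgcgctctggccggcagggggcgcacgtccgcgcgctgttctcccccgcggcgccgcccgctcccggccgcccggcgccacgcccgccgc
Sod1: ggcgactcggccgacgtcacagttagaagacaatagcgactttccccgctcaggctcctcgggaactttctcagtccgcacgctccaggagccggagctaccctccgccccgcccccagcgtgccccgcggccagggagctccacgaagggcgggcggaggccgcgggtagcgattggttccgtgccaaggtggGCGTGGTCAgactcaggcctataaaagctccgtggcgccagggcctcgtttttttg
Mgst1: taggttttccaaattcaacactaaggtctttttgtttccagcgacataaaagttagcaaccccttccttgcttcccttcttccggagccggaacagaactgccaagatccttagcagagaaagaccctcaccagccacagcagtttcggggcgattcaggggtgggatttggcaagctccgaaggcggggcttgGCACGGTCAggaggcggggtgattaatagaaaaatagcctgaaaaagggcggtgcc
Nfe2l2: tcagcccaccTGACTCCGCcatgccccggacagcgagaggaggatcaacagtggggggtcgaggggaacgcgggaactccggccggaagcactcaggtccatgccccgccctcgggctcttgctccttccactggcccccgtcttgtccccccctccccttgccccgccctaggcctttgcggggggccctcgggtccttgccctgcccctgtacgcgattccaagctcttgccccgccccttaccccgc
Prdx1: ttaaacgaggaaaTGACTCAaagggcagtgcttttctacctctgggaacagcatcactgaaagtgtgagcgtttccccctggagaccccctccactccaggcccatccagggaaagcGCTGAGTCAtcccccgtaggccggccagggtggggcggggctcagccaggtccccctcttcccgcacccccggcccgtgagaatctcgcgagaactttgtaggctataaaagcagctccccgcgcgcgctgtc
They lie at chr3:122245307-122245556 on the + strand for Gclm, chr16:90220512-90220761 (+) for Sod1, chr6:138140277-138140526 (+) for Mgst1, chr2:75704664-75704913 (-) for Nfe2l2 and chr4:116685349-116685598 (+) for Prdx1. The first base of the core match lies 134 bases before the start in Gclm, 56 in both Sod1 and Mgst1, 240 in Nfe2l2 and 133 in Prdx1. Of the 5, only the Prdx1 match, GCTGAGTCA, also contains an AP-1 heptamer, and the capitals nearer the 5′ end of that window mark a further heptamer. A match is a description of these letters and was not tested for binding.

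**Figure D1:**
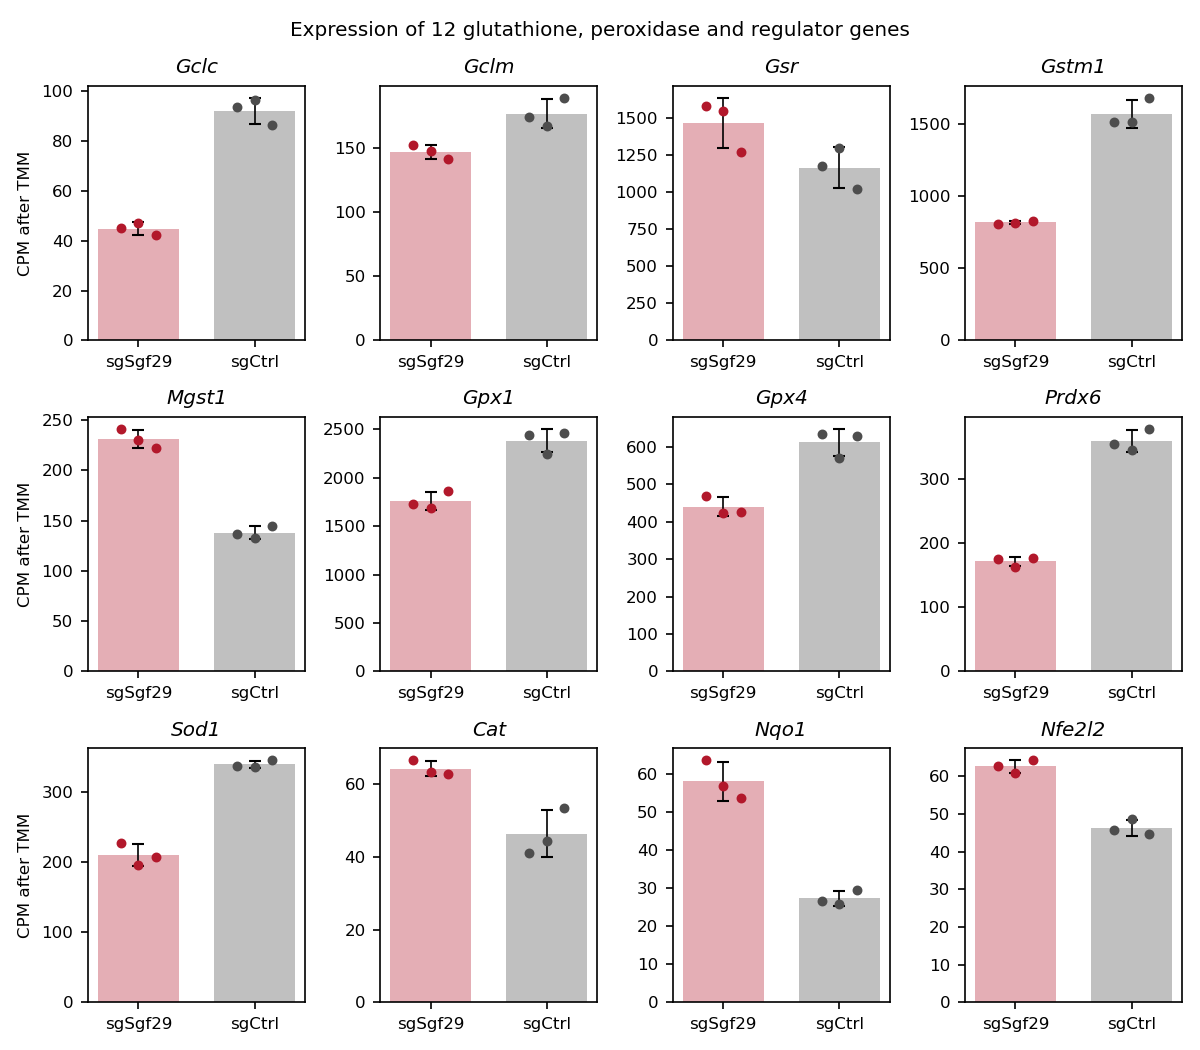
Expression of 12 members in the 3 sgSgf29 libraries (red, left) and the 3 sgCtrl libraries (grey, right), in CPM after TMM scaling on axes that start at 0. Points are libraries and bars are means with SD. The groups are apart for 11 of the 12 genes, as with Gclc at 42.2 to 47.2 CPM in sgSgf29 and 86.3 to 96.1 CPM in sgCtrl cells, and overlap for Gsr. The 12 genes were picked for display. Over all tested genes the groups are apart for 35.1% in the lower and 37% in the higher direction. The lower position of Gclm was not called under scaling by library size alone.

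Both subunits of the first enzyme of glutathione synthesis were lower in sgSgf29 cells, Gclm without a call under library size alone. Gclc encodes the catalytic subunit of glutamate-cysteine ligase, the rate-limiting step. It measured 45.1, 47.2 and 42.2 CPM in sgSgf29 libraries, against 93.5, 96.1 and 86.3 CPM in sgCtrl libraries. All sgSgf29 libraries lay at about the same level, well under the lowest sgCtrl library. The log2 fold change was -1.03 (SE 0.07, adjusted p = 5.85e-11), and the direction held under all 5 scalings. Gclm encodes the modifier subunit of the same ligase. It measured 152, 147 and 141 CPM in sgSgf29 libraries, against 174, 167 and 189 CPM in sgCtrl libraries. The groups were apart by a narrower margin, with a log2 fold change of -0.27 (SE 0.07, adjusted p = 0.00123) that became -0.03 (adjusted p = 0.643) under library size alone. Gss, the glutathione synthetase of the second step, had 32.6, 28.6 and 26.0 CPM in sgSgf29 libraries, against 23.8, 26.1 and 29.1 CPM in sgCtrl libraries. These ranges overlapped, and the log2 fold change of 0.14 was not called (adjusted p = 0.219), although under library size alone it was 0.37 (adjusted p = 0.00252). The gene spans of Gss and Acss2 overlap on opposite strands.

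Among the reductases and small carrier proteins, 4 of 9 were lower and 2 higher (44.4% and 22.2%, beside 34.4% and 35.4% of all tested genes). The median log2 fold change of the 9 was -0.15, and 0.08 under library size alone. There 3 were lower and 4 higher, beside 21.4% and 49.9% of all genes under that scaling. Gsr, the glutathione reductase, measured 1578, 1548 and 1274 CPM in sgSgf29 libraries, against 1177, 1295 and 1020 CPM in sgCtrl libraries. The lowest sgSgf29 library fell just below the highest sgCtrl library, so the groups overlapped. The log2 fold change was 0.33 (SE 0.09, adjusted p = 0.00308). Txn1, the cytosolic thioredoxin, measured 486, 466 and 487 CPM in sgSgf29 libraries, against 587, 549 and 639 CPM in sgCtrl libraries. The groups did not overlap, and the log2 fold change of -0.30 (adjusted p = 0.00057) became -0.07 (adjusted p = 0.322) under library size alone. Its reductase Txnrd1 measured 114, 121 and 117 CPM in sgSgf29 libraries, against 106, 115 and 120 CPM in sgCtrl libraries. Those ranges overlapped, with a log2 fold change of 0.05 (SE 0.06, adjusted p = 0.53), which was 0.28 (adjusted p = 0.001) under library size alone.

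Glrx, the cytosolic glutaredoxin that reduces glutathionylated proteins, measured 150, 156 and 163 CPM in sgSgf29 libraries, against 229, 229 and 253 CPM in sgCtrl libraries. It was lower in every sgSgf29 library, with a log2 fold change of -0.60 (SE 0.07, adjusted p = 7.08e-08). Txnrd3, a thioredoxin reductase with an added glutaredoxin domain that is best known from testis, measured 12.8, 11.0 and 9.72 CPM in sgSgf29 libraries, against 17.7, 16.4 and 19.6 CPM in sgCtrl libraries. Its groups did not overlap, and the log2 fold change was -0.69 (adjusted p = 3.22e-05). Srxn1 encodes sulfiredoxin, which repairs peroxiredoxins whose active cysteine has been overoxidized. It measured 53.1, 46.2 and 51.2 CPM in sgSgf29 libraries, against 43.1, 42.5 and 44.9 CPM in sgCtrl libraries. The libraries were apart, with a log2 fold change of 0.20 (SE 0.07, adjusted p = 0.0194). The call rested on the full set of libraries, because the adjusted p was 0.0745 without sgSgf29 library 1, 0.0503 without sgSgf29 library 3, 0.0534 without sgCtrl library 1 and 0.06 without sgCtrl library 2. Txnip, which binds reduced thioredoxin and restrains it, measured 336, 322 and 284 CPM in sgSgf29 libraries, against 271, 279 and 235 CPM in sgCtrl libraries. Every sgSgf29 library was higher, and the log2 fold change was 0.26 (SE 0.08, adjusted p = 0.0043).

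Cytosolic and mitochondrial counterparts were set side by side. Thioredoxin was lower in both compartments, with Txn1 not called under library size alone. The mitochondrial Txn2 measured 132, 119 and 125 CPM in sgSgf29 libraries, against 167, 168 and 170 CPM in sgCtrl libraries, with a log2 fold change of -0.43 (adjusted p = 4.68e-06). Superoxide dismutase, which turns superoxide into hydrogen peroxide, was also lower in both. Sod1, the copper-zinc enzyme of the cytosol, measured 227, 196 and 208 CPM in sgSgf29 libraries, against 338, 336 and 346 CPM in sgCtrl libraries (log2 fold change -0.69, SE 0.07, adjusted p = 9.74e-09). Sod2, the manganese enzyme of mitochondria, measured 74.8, 81.4 and 78.2 CPM in sgSgf29 libraries, against 101, 102 and 119 CPM in sgCtrl libraries (log2 fold change -0.46, adjusted p = 9.81e-06). For neither dismutase did the groups overlap. Sod1 lies opposite part of Scaf4 and shares a near-identical stretch with 1 annotated pseudogene, so its counts carry that uncertainty.

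Among the remaining pairs, Glrx was lower as given above, and its difference from the mitochondrial form Glrx2 was not tested. Glrx2 measured 40.4, 39.7 and 39.2 CPM in sgSgf29 libraries, against 38.1, 35.4 and 37.2 CPM in sgCtrl libraries. Its groups were narrowly apart without passing the test (log2 fold change 0.11, adjusted p = 0.198), and it was called higher under library size alone (0.34, adjusted p = 0.000419). The mitochondrial reductase Txnrd2 measured 41.6, 35.1 and 39.2 CPM in sgSgf29 libraries, against 47.4, 41.4 and 40.0 CPM in sgCtrl libraries. That overlap left a log2 fold change of -0.15 (adjusted p = 0.112), which was -0.21 (adjusted p = 0.0394) without sgCtrl library 3 and 0.08 under library size alone. Prdx1, a cytosolic peroxiredoxin, measured 139, 141 and 141 CPM in sgSgf29 libraries, against 125, 133 and 146 CPM in sgCtrl libraries (log2 fold change 0.06, adjusted p = 0.434). Prdx3, the mitochondrial peroxiredoxin, measured 116, 102 and 108 CPM in sgSgf29 libraries, against 111, 109 and 120 CPM in sgCtrl libraries (log2 fold change -0.06, adjusted p = 0.448). Both pairs of ranges overlapped, and under library size alone Prdx1 was at 0.29 (adjusted p = 0.000663) and Prdx3 at 0.17 (adjusted p = 0.024).

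**Figure D2:**
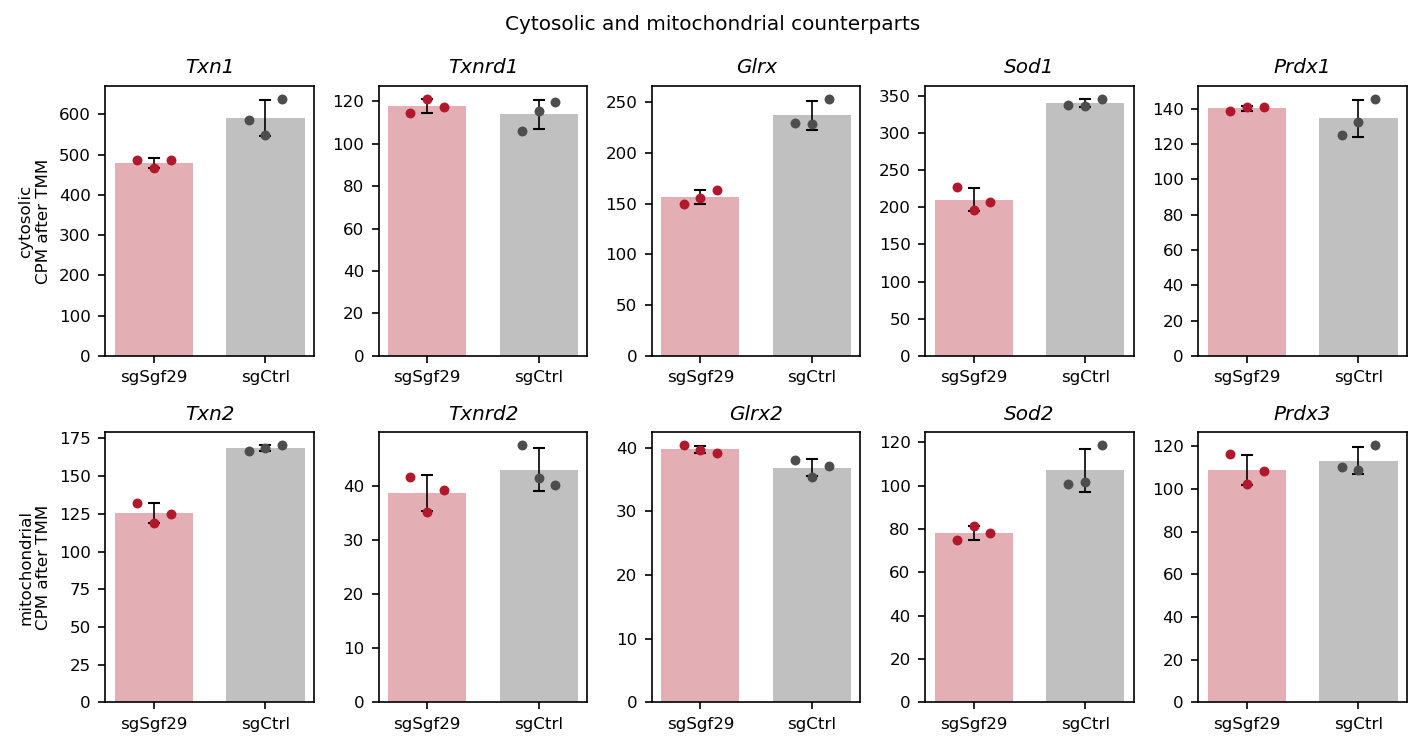
Cytosolic genes (top row) and their mitochondrial counterparts (bottom row) in 3 sgSgf29 libraries (red, left) and 3 sgCtrl libraries (grey, right), in CPM after TMM scaling. Points are libraries and bars are means with SD. Both thioredoxins and both superoxide dismutases sit lower in sgSgf29 cells, Txn1 without a call under library size alone, while the ranges of Prdx1 and Prdx3 overlap.

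Of 11 tested peroxidases and dismutases, 6 were lower and 2 higher (54.5% and 18.2%, beside 34.4% and 35.4% of all tested genes). Their median log2 fold change was -0.23. With library size alone 5 were lower and 4 higher, beside 21.4% and 49.9% of all genes under that scaling. Prdx6 led the fall. It encodes the peroxiredoxin with a single catalytic cysteine, which draws on glutathione and also carries phospholipase activity. It measured 174, 163 and 176 CPM in sgSgf29 libraries, against 353, 345 and 377 CPM in sgCtrl libraries. No library came near the other group, and the log2 fold change was -1.07 (SE 0.06, adjusted p = 1.06e-11). Gpx1, the selenium enzyme that reduces hydrogen peroxide with glutathione, measured 1727, 1684 and 1863 CPM in sgSgf29 libraries, against 2439, 2250 and 2467 CPM in sgCtrl libraries. The groups were apart, with a log2 fold change of -0.44 (SE 0.08, adjusted p = 3.26e-05). Gpx4, which reduces lipid peroxides in membranes and protects cells from ferroptosis, measured 469, 423 and 427 CPM in sgSgf29 libraries, against 636, 571 and 630 CPM in sgCtrl libraries. Its log2 fold change was -0.48 (SE 0.07, adjusted p = 3.46e-06), with no overlap of libraries and 1 annotated pseudogene that shares sequence with it.

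Prdx5, a peroxiredoxin of mitochondria, peroxisomes and cytosol with high counts, was lower by a small margin that depended on scaling. Prdx5 measured 1671, 1523 and 1517 CPM in sgSgf29 libraries, against 1815, 1757 and 1943 CPM in sgCtrl libraries. The libraries did not overlap, but the log2 fold change of -0.23 (adjusted p = 0.0109) was not called without sgSgf29 library 2 (adjusted p = 0.0577) or sgSgf29 library 3 (adjusted p = 0.0541) and was 0.00 under library size alone. Prdx5 also overlaps Trmt112 on the opposite strand. Prdx2, a second cytosolic peroxiredoxin abundant in blood cells, had a log2 fold change of -0.13 (adjusted p = 0.0914), which was -0.19 (adjusted p = 0.0235) without sgCtrl library 2 and 0.10 under library size alone. Cat, the peroxisomal catalase, went the other way and measured 66.7, 63.3 and 62.9 CPM in sgSgf29 libraries, against 41.2, 44.5 and 53.6 CPM in sgCtrl libraries. All sgSgf29 libraries were higher, with a log2 fold change of 0.46 (SE 0.08, adjusted p = 4.47e-05). Gpx3, the secreted glutathione peroxidase, averaged 44.2 ± 3.40 CPM in sgSgf29 and 36.6 ± 4.89 CPM in sgCtrl libraries (SD, n = 3 each), and the groups overlapped. Its log2 fold change of 0.26 (edgeR adjusted p = 0.0136) was not called without sgSgf29 library 1 (adjusted p = 0.0684) or sgCtrl library 2 (adjusted p = 0.0899). The members of this class that were too low to test were Gpx2, Gpx6, Gpx7 and Gpx8, with 0 counts in every library, Gpx5 with 3 counts and Prdx4, the peroxiredoxin of the endoplasmic reticulum, with 2 counts over the 6 libraries. A floor of 3 counts in a library corresponds to 0.135 to 0.176 CPM in sgSgf29 and 0.15 to 0.201 CPM in sgCtrl libraries, counting error only.

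**Figure D3:**
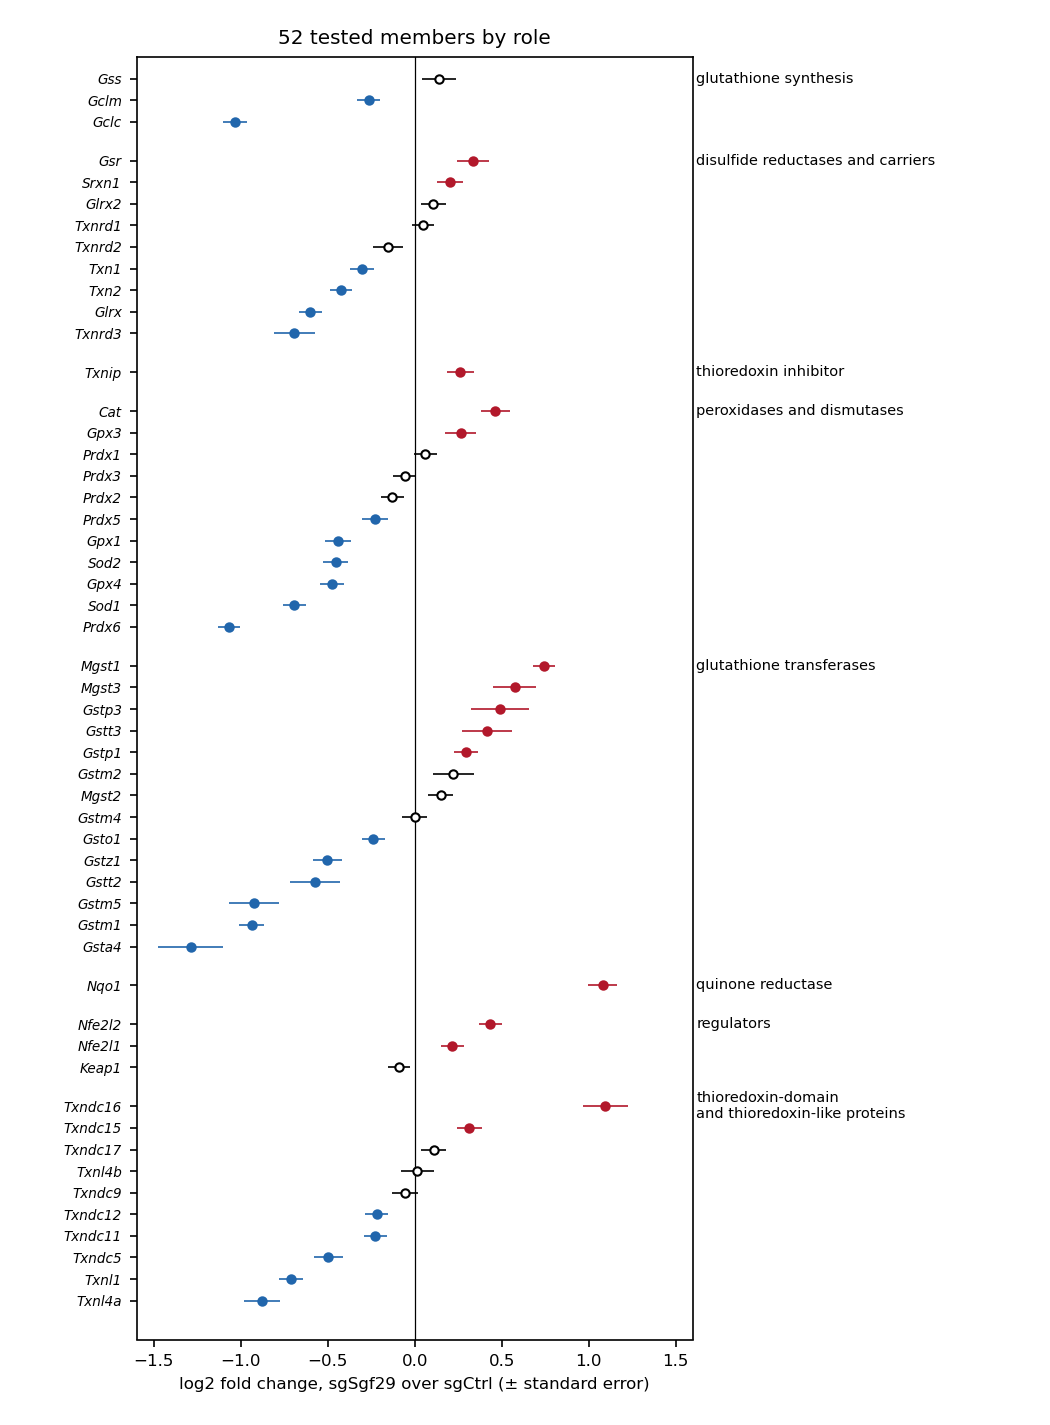
Log2 fold change of sgSgf29 over sgCtrl for the 52 tested members, grouped by role and ordered within each role, with the standard error as a horizontal bar. Filled points passed an adjusted p under 0.05 (blue lower, 23 genes, and red higher, 15 genes), and open points did not. The values run between -1.29 for Gsta4 and 1.10 for Txndc16, and 6 of the blue points, Gclm, Txn1, Gsto1, Prdx5, Txndc11 and Txndc12, lost their call under library size alone.

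Glutathione transferases couple glutathione to electrophiles. Of 11 tested cytosolic transferases (Gst genes), 6 were lower and 3 higher (54.5% and 27.3%, beside 34.4% and 35.4% of all tested genes) with a median log2 fold change of -0.24, while of the 3 microsomal ones (Mgst genes) 2 were higher and none lower with a median of 0.57. Under library size alone the cytosolic genes were 5 lower and 5 higher with a median of -0.01, and all 3 microsomal genes were higher with a median of 0.81. These counts stand beside 21.4% lower and 49.9% higher of all genes under that scaling. The difference between the families was not tested. Gstm1, a mu-class enzyme, had the highest level per kb of the cytosolic class. It measured 810, 818 and 830 CPM in sgSgf29 libraries, against 1513, 1516 and 1682 CPM in sgCtrl libraries. The sgSgf29 values were tightly grouped far below the lowest sgCtrl value, with a log2 fold change of -0.94 (SE 0.07, adjusted p = 3.61e-10). Gstm1 shares a near-identical stretch with 1 annotated pseudogene. Gstm5, a low mu-class neighbour on chromosome 3, measured 15, 10.01 and 9.63 CPM in sgSgf29 libraries, against 23.5, 18.5 and 23.0 CPM in sgCtrl libraries. It was lower in each library, with a log2 fold change of -0.92 (SE 0.14, adjusted p = 7.75e-06). The other tested mu genes of the same cluster were not called. Gstm4 averaged 54.1 ± 3.60 CPM in sgSgf29 and 54.0 ± 0.950 CPM in sgCtrl libraries (log2 fold change -0.00 with TMM and 0.23 under library size alone). Gstm2 had a log2 fold change of 0.22 (adjusted p = 0.0926), which was 0.35 (adjusted p = 0.0131) without sgSgf29 library 3 and 0.45 (adjusted p = 0.00166) under library size alone.

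Gsta4, the alpha-class enzyme known for clearing the lipid aldehyde hydroxynonenal, had the largest fall among the 52 members. It measured 3.57, 3.65 and 3.32 CPM in sgSgf29 libraries, against 6.42, 8.44 and 10.7 CPM in sgCtrl libraries. The sgCtrl values were spread, yet all lay above the sgSgf29 ones, with a log2 fold change of -1.29 (SE 0.19, adjusted p = 3.78e-06). Gstt2, a theta-class enzyme, had a log2 fold change of -0.57. Gstz1, which also serves as an isomerase in tyrosine breakdown, was at -0.50. Gsto1, an omega-class enzyme with glutaredoxin-like activity, was at -0.24 (adjusted p = 0.00302) and at -0.01 (adjusted p = 0.921) under library size alone. In the other direction, Gstp1, the pi-class enzyme abundant in many tumours, had a log2 fold change of 0.29 (adjusted p = 0.000872), but it shares a long near-identical stretch with its neighbour Gstp2. Gstp3 at 0.49 and Gstt3 at 0.42 were called from 4.08 to 9.33 CPM. Each call depended on 1 library, since Gstp3 had an adjusted p of 0.058 without sgCtrl library 2 and Gstt3 of 0.0629 without sgSgf29 library 2.

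Mgst1, a membrane-bound transferase of endoplasmic reticulum and outer mitochondrial membrane with peroxidase activity on lipids, was the most strongly raised transferase. It measured 241, 230 and 223 CPM in sgSgf29 libraries, against 137, 132 and 145 CPM in sgCtrl libraries. The groups were far apart relative to their spread, with a log2 fold change of 0.74 (SE 0.06, adjusted p = 2.15e-09). Mgst3, a relative with similar lipid peroxidase activity, averaged 12.6 ± 1.09 CPM in sgSgf29 and 8.47 ± 0.534 CPM in sgCtrl libraries (SD, n = 3 each; log2 fold change 0.57, edgeR adjusted p = 0.000386). Mgst2, which can also conjugate glutathione to leukotriene precursors, measured 582, 528 and 486 CPM in sgSgf29 libraries, against 484, 502 and 454 CPM in sgCtrl libraries. Its ranges overlapped and it was not called (log2 fold change 0.15, adjusted p = 0.0746), but it was at 0.22 (adjusted p = 0.0197) without sgSgf29 library 3 and at 0.38 (adjusted p = 6.08e-05) under library size alone. The 11 transferases too low to test were Gsta1, Gsta2, Gsta3, Gstk1, Gstm3, Gstm6, Gstm7, Gsto2, Gstp2, Gstt1 and Gstt4. Gsto2 had the most with 21 counts over the 6 libraries, followed by Gstt1 with 20, and Gsta2, Gstk1 and Gstm7 were at 0 in every library.

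The regulators and the quinone reductase that often reports on them were higher or not called. Nqo1 encodes a quinone reductase that is a widely used readout of NFE2L2. It measured 63.8, 57.0 and 53.7 CPM in sgSgf29 libraries, against 26.8, 25.8 and 29.6 CPM in sgCtrl libraries. Each sgSgf29 library was well above every sgCtrl library, with a log2 fold change of 1.08 (SE 0.08, adjusted p = 3.69e-10). Nfe2l2 measured 62.6, 60.9 and 64.2 CPM in sgSgf29 libraries, against 45.8, 48.7 and 44.6 CPM in sgCtrl libraries. No overlap was seen, and the log2 fold change was 0.43 (SE 0.07, adjusted p = 9.54e-06). Nfe2l1, a related factor of the endoplasmic reticulum membrane that drives proteasome genes, measured 141, 125 and 125 CPM in sgSgf29 libraries, against 112, 112 and 113 CPM in sgCtrl libraries. It was higher in every library by a smaller margin, with a log2 fold change of 0.22 (SE 0.07, adjusted p = 0.00613). Keap1, the adaptor that sends NFE2L2 to degradation, measured 118, 115 and 114 CPM in sgSgf29 libraries, against 119, 130 and 122 CPM in sgCtrl libraries. The sgSgf29 libraries were the lowest but only just, and the log2 fold change of -0.09 (adjusted p = 0.199) was 0.14 (adjusted p = 0.0542) under library size alone. Transcript levels of Nfe2l2 and Keap1 do not give the amount or activity of the proteins, which were not measured here.

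The proteins with a thioredoxin domain beyond the core system numbered 12, of which 10 were tested. Of these 5 were lower and 2 higher (50% and 20%, beside 34.4% and 35.4% of all tested genes). Under library size alone 3 were lower and 4 higher, beside 21.4% and 49.9% of all genes under that scaling. Txnl4a, a small thioredoxin-fold subunit of the spliceosome, measured 13.2, 13.03 and 12.3 CPM in sgSgf29 libraries, against 25.8, 21.4 and 23.5 CPM in sgCtrl libraries (log2 fold change -0.88, SE 0.10, adjusted p = 2.1e-07). Txnl1, a thioredoxin-like protein bound to the proteasome, measured 104, 98.9 and 102 CPM in sgSgf29 libraries, against 154, 163 and 181 CPM in sgCtrl libraries (log2 fold change -0.71, SE 0.07, adjusted p = 1.05e-08). Neither gene had overlapping groups. Txndc5, a protein disulfide isomerase of the endoplasmic reticulum, measured 80.2, 80.6 and 84.7 CPM in sgSgf29 libraries, against 117, 97.4 and 132 CPM in sgCtrl libraries. Its sgCtrl values were the more variable ones and stayed above, with a log2 fold change of -0.50 (SE 0.08, adjusted p = 2.12e-05). Txndc12, another oxidoreductase of the endoplasmic reticulum, measured 71.5, 65.7 and 73.6 CPM in sgSgf29 libraries, against 77.9, 82.2 and 85.0 CPM in sgCtrl libraries. Its log2 fold change of -0.22 (adjusted p = 0.00678) was not called without sgSgf29 library 2 (adjusted p = 0.0745) and was 0.01 under library size alone, as was that of Txndc11, a membrane protein with thioredoxin domains, at -0.23 with TMM.

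Txndc16, a luminal thioredoxin-domain protein, had the largest rise among the 52 members. It measured 16.2, 17.9 and 14.02 CPM in sgSgf29 libraries, against 7.12, 8.30 and 7.14 CPM in sgCtrl libraries. The sgSgf29 values were all above the sgCtrl ones, with a log2 fold change of 1.10 (SE 0.13, adjusted p = 2.14e-07), and the gene overlaps Gpr137c on the opposite strand. Txndc16 also shares near-identical stretches of at most 155 bases with the coding genes Chpt1 and Washc4. Txndc15, known from cilia, was also higher at 0.31 (adjusted p = 0.000761). Txndc9, a regulator of chaperonin folding, was at -0.05, Txnl4b, a splicing-related relative of Txnl4a, at 0.01, and Txndc17, a cytosolic oxidoreductase, at 0.11, and none of them was called with TMM. Under library size alone Txnl4b (0.25) and Txndc17 (0.34) were called higher, and Txndc9 stood at 0.18. Txndc2, a sperm thioredoxin, had 23 counts over the 6 libraries, and Txndc8 had none. Other members whose gene span overlaps a protein-coding gene on the opposite strand included Gsto1 (Cfap43), Gstz1 (Pomt2), Prdx2 (Junb and Rnaseh2a), Txndc5 (Bmp6), Txndc11 (Snn), Txndc12 (A730015C16Rik) and Txnl1 (Wdr7), and the sources used here do not state whether counting used strand. On the same strand, Txndc12 overlaps Kti12, Txnrd1 overlaps Eid3, Gstt3 overlaps Gm20441 and Txnl4a overlaps Gm16286. Prdx1 shares near-identical stretches with 2 annotated pseudogenes and Txndc9 with 1.

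Genes around the core system came from 6 lists, whose shares of lower and higher genes are read beside 34.4% and 35.4% of all tested genes. Among 14 tested genes of NADPH supply, the cofactor of both reductase systems, 9 were lower and 4 higher (64.3% and 28.6%) with a median log2 fold change of -0.44. Me2, a mitochondrial malic enzyme, averaged 103 ± 5.67 CPM in sgSgf29 and 229 ± 13.3 CPM in sgCtrl libraries (SD, n = 3 each; log2 fold change -1.16, edgeR adjusted p = 5.9e-12). The list was not split by whether an enzyme makes NADPH or mainly NADH, so a change in it is not a measure of NADPH supply. Nadk, the NAD kinase, was at 0.86, Idh1, the cytosolic NADP-linked isocitrate dehydrogenase, at 0.73, and G6pdx, which opens the pentose phosphate pathway, at 0.32. Of the other genes of that pathway, Pgls was lower at -0.58, Pgd at -0.47 and Tkt at -0.47, and Taldo1 was higher at 0.67. Members of this pathway thus moved both ways, as in the core set. Of 18 tested genes for cystine import, cysteine synthesis and glutathione turnover, 9 were lower and 4 higher (50% and 22.2%) with a median of -0.21. Cth, which makes cysteine from cystathionine, measured 16.4, 12.5 and 8.35 CPM in sgSgf29 libraries, against 43.5, 56.4 and 64.2 CPM in sgCtrl libraries (log2 fold change -2.15, edgeR adjusted p = 2.19e-10). Slc7a11, the cystine importer, was at -0.38 (adjusted p = 0.00359). The smallest adjusted p values of this list also included 2 higher genes. Dpep2, a membrane dipeptidase, measured 136, 118 and 83.6 CPM in sgSgf29 libraries, against 14.3, 14.8 and 14.4 CPM in sgCtrl libraries (log2 fold change 2.96, edgeR adjusted p = 8.01e-14), and Ggt5, a gamma-glutamyl transferase, was at 1.65.

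Of 13 tested partners and regulators of NFE2L2, 1 was lower and 9 higher (7.69% and 69.2%, beside 34.4% and 35.4% of all tested genes) with a median log2 fold change of 0.19. The higher count was 8 with RLE scaling or DESeq2 and 10 under library size alone. It was 6 to 8 when 1 library was left out. Bach1, a repressor that competes for the same elements, averaged 56.8 ± 3.77 CPM in sgSgf29 and 30.0 ± 1.98 CPM in sgCtrl libraries (SD, n = 3 each; log2 fold change 0.92, edgeR adjusted p = 2.06e-09). Sqstm1, which sequesters KEAP1, was at 0.76, and Mafk, a small Maf partner, at 0.62. The list thus includes both antagonists and facilitators of the factor among its higher genes, and the count of higher genes does not separate them. Of 17 other NFE2L2 target genes, 7 were lower and 6 higher (41.2% and 35.3%) with a median of -0.04. Tkt, which was lower, and Taldo1, which was higher, are counted both here and in the list of NADPH supply. Aldh3a2, a fatty aldehyde dehydrogenase, was at 1.48 and Hmox1, heme oxygenase, at 0.59, whereas Ptgr1, a reductase of lipid aldehydes and prostaglandins, was at -0.93 and Ftl1, the ferritin light chain, at -0.99. Of 18 genes for selenoproteins and their synthesis, 7 were lower and 7 higher (38.9% each) with a median of 0.03. Selenop, a selenium carrier, was at 1.41, Selenok, of the endoplasmic reticulum, at 0.63 and Selenoh, a nuclear selenoprotein, at -0.70.

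Of 18 tested genes for other disulfide, sulfoxide and aldehyde repair, 9 were lower and 5 higher (50% and 27.8%, beside 34.4% and 35.4% of all tested genes) with a median log2 fold change of -0.21. Msra, which reduces oxidized methionine, averaged 107 ± 3.17 CPM in sgSgf29 and 54.4 ± 2.61 CPM in sgCtrl libraries (SD, n = 3 each; log2 fold change 0.97, edgeR adjusted p = 5.74e-11). Aifm2, an oxidoreductase that suppresses ferroptosis beside Gpx4, was at 0.95. Alox5ap, a membrane relative of the microsomal transferases that serves leukotriene synthesis, was at 0.89. Ltc4s, the leukotriene synthase of the same membrane family, is named because its values stood out at 7.27, 8.16 and 7.52 CPM in sgSgf29 libraries, against 0.699, 0.335 and 0.999 CPM in sgCtrl libraries. It was chosen after its values were seen and entered the test through its sgSgf29 counts, since the sgCtrl libraries held 11, 5 and 20 counts, so its values are a description. Under library size alone the counts of lower and higher genes differed for 3 of the lists by more than 1.5 times in 1 direction, with 0 lower among the partners of NFE2L2, 4 lower among the selenoprotein genes and 8 higher in the repair list. Of all genes, 21.4% were lower and 49.9% higher under that scaling.

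**Figure D4:**
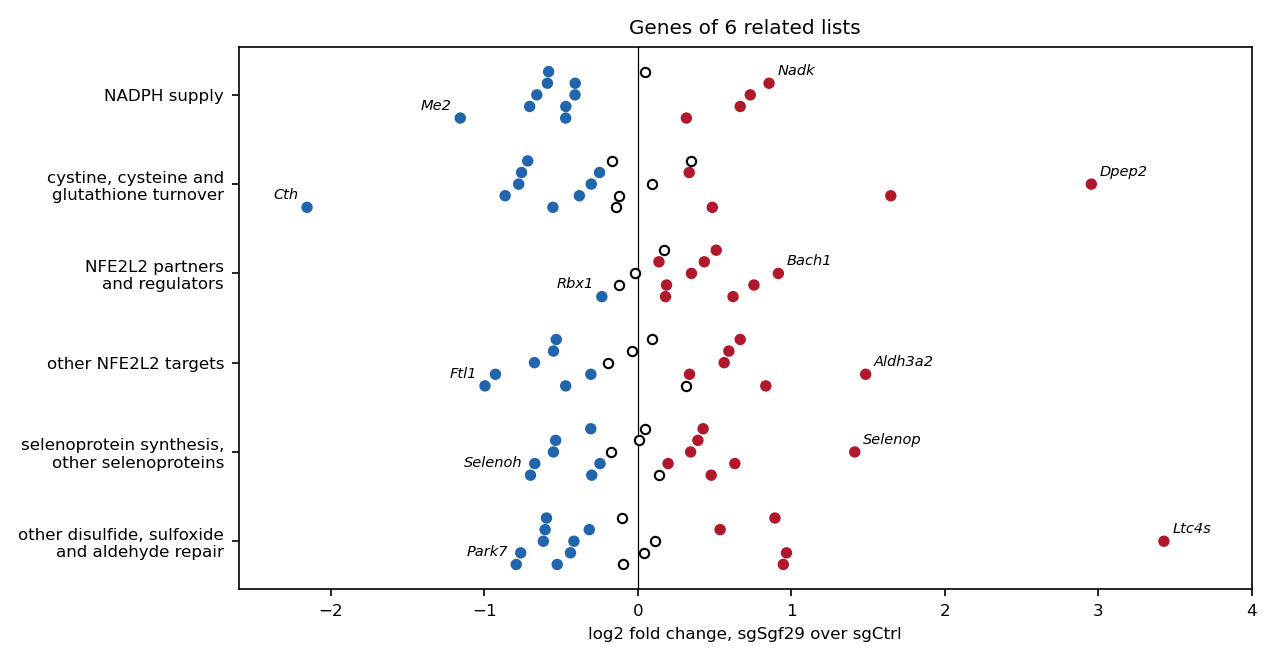
Log2 fold change of sgSgf29 over sgCtrl for the tested genes of 6 related lists, 1 row per list, with points offset vertically for legibility. Filled points passed an adjusted p under 0.05 (blue lower, red higher), open points did not, and the gene at either end of each row is named. The rows spread to both sides of 0, and the list of NFE2L2 partners has 9 red points and 1 blue one.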

How the data were processed

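Raw counts per gene of 6 RNA libraries were taken from the table the authors deposited. The paper names STAR and featureCounts, STAR 2.6.0a and GRCm38 stand in the submitters' processing notes, and the table carries 5 bookkeeping entries of the kind htseq-count writes. No source used here states the annotation, the strand setting or how multiply mapped reads were treated. Bookkeeping entries (29.1% ± 0.891 of the table in sgSgf29 and 28.8% ± 2.78 in sgCtrl libraries; SD, n = 3 each) were left out of library sizes.

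Genes passing filterByExpr (minimum count 10, minimum total 15) were TMM-scaled, and sgSgf29 was compared with sgCtrl by edgeR's quasi-likelihood test (version 4.0.16, under R 4.3.3) with Benjamini-Hochberg adjustment over all 11169 genes. Every adjusted p in the text is from this test, unless another setting is named. The biological coefficient of variation was 6.61%. The standard error is the absolute log2 fold change divided by the square root of F. The procedure was tested on simulated data in which few genes changed, as many raised as lowered. That simulation does not bear on the choice of scaling in these data, where most tested genes were called. No library pair within a group agreed within sampling noise, with chi-square values of 4.52 to 15.7 for each degree of freedom. Alternatives were scaling by RLE, the upper quartile or library size alone, TMM factors that ignored ribosomal protein genes, limma-voom (limma 3.58.1), DESeq2 1.42.0, other filters and thresholds, a replicate block, and leaving out each library.

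Coordinates and promoter windows came from RefSeq on GRCm38.p6, which gave a position for all 71 members, and exonic lengths and overlaps from GENCODE on GRCm38. Stretches of at least 150 bases at 97% identity or more, found with BLAST+ 2.17.0, were called shared. The members and the lists were chosen with earlier results of these data known. Per-library values were given for a fixed set of members and, in each role, for up to 4 with the largest absolute change and up to 3 with the highest mean level, plus 5 pairs of compartments. From each related list up to 3 called genes with the smallest adjusted p and Slc7a11, Hmox1, G6pdx and Bach1 were named. Pgls, Pgd, Tkt and Taldo1 were added to show the rest of the pathway of G6pdx.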

Additional observations from a re-analysis of the deposited data

How the results depend on the processing

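Of the 38 members called with TMM, 17 lower and 11 higher ones had the same call in all 15 alternatives of scaling, filter, tool, replicate block or left-out library. The matching share over all called genes was not counted. Stricter thresholds were counted apart. Among the scalings, library size alone moved the member counts most: 25 members were higher and 17 lower, 2385 of all genes were lower, and 0 NFE2L2 partners and 4 selenoprotein genes were lower while 8 genes of the repair list were higher. Under that scaling Gstm4 (0.23), Keap1 (0.14), Prdx2 (0.10), Prdx3 (0.17), Prdx5 (0.0034), Txndc11 (0.0053), Txndc12 (0.012), Txndc9 (0.18) and Txnrd2 (0.08) changed sign, which follows from the shift of the whole distribution by the scaling. Gstm4, close to 0, also turned positive with upper-quartile scaling (0.0237), with no filter on low counts (0.0024) and with a CPM of at least 1 in 3 libraries (0.0020). Requiring 2-fold or more left 3 lower and 2 higher members. Leaving out 1 library at a time gave 21 to 24 lower and 12 to 16 higher members, and uncalled genes near 0 changed sign: Gstm4 (-0.0374 to 0.0608), Txndc9 (-0.1191 to 0.0238), Txnl4b (-0.042 to 0.1041) and Txnrd1 (-0.001 to 0.0855). The cause was not tested. DESeq2, limma-voom, RLE scaling and TMM without ribosomal protein genes changed no member's call.

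With the replicate number as a block, 24 members were lower and 16 higher, and 2 NFE2L2 partners were lower. Over all genes the block gave 3937 lower and 4059 higher. Deviations of same-numbered libraries correlated at 0.005, 0.055 and 0.078. Libraries 2 and 3 of sgSgf29 correlated most with their own number, whereas sgSgf29 library 1 correlated more with sgCtrl library 2 (0.04). With 3 libraries in each group, values this small cannot tell whether same-numbered libraries were handled together. The 19 untested members held at most 23 counts each over the 6 libraries, too few to compare, and 8 had 0 counts in every library. The cause was not tested, and Gsta1 and Gsta2 share stretches of 874 and 869 bases with the coding gene Gm3776.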
